A study of Mus musculus with 38 samples.

Results

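The mouse genome carries many remnants of ERVK proviruses, and the data described here follow those outside the IAP, MMERVK10C, RLTR10 and ETn/MusD groups, after loss of Trim28 in neural progenitor cells (NPCs) and in the brain. Members were chosen by RepeatMasker annotation, with no measured value in the rule: all subfamilies of the ERVK family were taken, except those whose names start with IAP, MMERVK10C, RLTR10, ETnERV, MMETn, RLTRETN or MusD. This left 244 of 1153 transposable element (TE) subfamilies, 214 of them long terminal repeats (LTRs) and 30 internal regions, out of 285 ERVK subfamilies. Their individual copies numbered 275051 of 3494634 annotated TE copies, and 70132 of them held at least 1 read in the 32 bulk RNA-seq libraries.

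ERVK elements are relics of betaretrovirus-like infections of the germ line. A complete provirus has an internal region with viral genes between a pair of LTRs, which hold the viral promoter and polyadenylation signal, and recombination between the LTRs often leaves a solitary LTR behind. Trim28 is a corepressor that is brought to such elements by KRAB zinc finger proteins and recruits the histone methyltransferase Setdb1, which deposits H3K9me3, a mark of silent chromatin.

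Trim28 loss was compared with control in 5 experiments. Mouse NPCs were taken at embryonic day 13.5 from the forebrain of Rosa26-Cas9 knock-in animals, transduced with lentiviral vectors that carried a guide RNA and an H2B-RFP reporter, grown for 10 days and sorted for RFP. Guides to exon 3, exon 4 or exon 13 of Trim28 gave 6 Trim28-KO libraries, and lacZ guides gave 2 controls. In 2 lines of adult mice, Cas9-GFP knock-in and Stop-Cas9-GFP knock-in, AAV vectors with these guides and an H2B-RFP reporter were injected into the striatum, and RFP-positive nuclei were sorted 2 months later. In the first line the reporter was under the neuronal Synapsin promoter, and in the second a further vector carried Cre under that promoter, so that Cas9 was switched on in neurons. Each line had 4 Trim28-KO libraries (guides g3, g4, g13 and the 3 together) and 1 lacZ control. In the fourth experiment adult Trim28 floxed mice received AAV vectors in the forebrain, and GFP-positive nuclei were analysed 2 months later. Vectors for Cre and for a nuclear GFP reporter, each driven by the Synapsin promoter, were injected together. The paper lists floxed mice of +/- and +/+ genotype and calls the +/+ mice Trim28-KO. It does not spell out the genotype of the control arm. This experiment had 4 libraries labelled Trim28-KO and 4 labelled control. The fifth compared the cortex of 3-month-old Emx1-Cre (+/-); Trim28-fl (+/+) mice with that of Emx1-Cre (+/-); Trim28-fl (+/-) controls, 3 libraries each. Emx1-Cre acts from development onwards in the lineage of cortical excitatory neurons and glia, so other cortical cells keep Trim28, and the controls themselves carry 1 deleted allele. In whole cortex, fewer cells of a type and less RNA per cell cannot be told apart.

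The level of Trim28 went against the labels in the floxed mice. In NPCs Trim28 was 36.8 to 73.5 CPM, the unit for reads scaled to the library's total of gene counts (median 47.8), in 6 Trim28-KO libraries, against 157 and 204 in the controls (log2 fold change -1.82, adjusted p = 0.031). With 1 library left out this value was between -2.00 and -1.62 and passed in 2 of 8 fits. In Emx1-Cre cortex it was 6.07, 8.52 and 8.86 CPM against 20.8, 18.9 and 21.4 (-1.39, adjusted p = 0.000378). The Cas9-GFP nuclei had 93.7 to 105 CPM against 143 in their control (-0.51, adjusted p = 0.415), and the Stop-Cas9-GFP nuclei 88.4 to 127 against 105 (0.00, adjusted p = 1). Trim28 was measured here as RNA only, which shows neither the share of edited alleles nor the protein left. In the floxed mice, the 4 libraries labelled Trim28-KO had 130 to 146 CPM and the 4 labelled control 25.6 to 31.6 (2.26, adjusted p = 2.74e-06), so directions in that experiment are given by label throughout. Totals of gene counts ran from 8790346 to 25345083 per library, those of member copies from 58609 to 360569 and those of member subfamilies from 18780 to 87141. All p-values measure the spread between these libraries. In the 2 lines with 1 control that spread comes from the Trim28-KO libraries alone, whose guides differ.

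The LTRs of 3 loci are shown first, because most of the later comparisons turn on them. Each sequence is the strand of the annotated copy in build GRCm38.p6, at most 300 bases of it, with the hexamer AATAAA, the core of the polyadenylation signal, in capitals. RLTR34B_MM_dup64 (bases 1 to 300 of 534, chr2:170673658-170673957, minus strand) lay outside any annotated gene and was the leading copy of its subfamily in NPCs and cortex. RMER17D2_dup614 (a stretch around the hexamer, of 745 bases, chr7:34088345-34088644, plus strand) and RMER17D2_dup796 (bases 1 to 300 of 385, chr9:109502572-109502871, plus strand) belong to 1 subfamily and lie on different chromosomes.
RLTR34B_MM_dup64: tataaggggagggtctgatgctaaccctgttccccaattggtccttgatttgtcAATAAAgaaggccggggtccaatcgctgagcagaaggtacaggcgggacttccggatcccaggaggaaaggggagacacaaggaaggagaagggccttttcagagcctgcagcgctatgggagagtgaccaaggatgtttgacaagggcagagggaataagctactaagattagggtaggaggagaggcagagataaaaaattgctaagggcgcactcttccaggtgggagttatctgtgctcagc
RMER17D2_dup614: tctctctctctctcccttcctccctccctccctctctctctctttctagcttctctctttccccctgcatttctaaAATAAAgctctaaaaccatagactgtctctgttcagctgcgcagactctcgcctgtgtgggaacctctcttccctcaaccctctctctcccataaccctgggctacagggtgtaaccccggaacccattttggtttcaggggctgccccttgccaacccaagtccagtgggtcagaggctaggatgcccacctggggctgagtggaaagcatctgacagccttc
RMER17D2_dup796: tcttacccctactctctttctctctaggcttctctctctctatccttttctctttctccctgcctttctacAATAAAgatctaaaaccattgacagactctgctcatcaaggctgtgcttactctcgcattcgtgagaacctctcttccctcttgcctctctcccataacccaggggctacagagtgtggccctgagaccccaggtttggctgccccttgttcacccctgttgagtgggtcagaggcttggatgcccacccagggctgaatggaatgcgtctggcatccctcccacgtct

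Both RMER17D2 copies aligned over 371 positions with 83% identity (308 matches). They share a pyrimidine-rich stretch just before the hexamer, which began at base 427 of RMER17D2_dup614 and at base 72 of RMER17D2_dup796. On the copy's own strand AATAAA was present in 28.1% of 241367 LTR copies of the members, and in 54.6% and 43.8% of those within 10% of the length of these copies. Among the 17 LTR copies upregulated in NPCs 64.7% held it, against 39% of 1875 tested and not called. In cortex it was 42.9% of 21 against 33.4% of 894. Another hexamer, TATAAA, went the other way (11.8% against 24.5% in NPCs, 19% against 23.9% in cortex). Upregulated member copies, LTRs and internal regions together, had median lengths of 519.5 and 505 bp, against 420 and 387 bp of all tested. The part of length in these shares was not tested, and some of the copies share a locus.

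The second pair are the LTRs of 1 provirus on chromosome 12, RLTR46A_dup61 (bases 1 to 300 of 321, chr12:70183634-70183933) and RLTR46A_dup62 (bases 1 to 300 of 322, chr12:70189825-70190124), both on the plus strand on either side of an internal MMERVK10C copy. They are shown together because their reads differed widely in cortex although their sequences were 97.8% identical (314 of 321 positions).
RLTR46A_dup61: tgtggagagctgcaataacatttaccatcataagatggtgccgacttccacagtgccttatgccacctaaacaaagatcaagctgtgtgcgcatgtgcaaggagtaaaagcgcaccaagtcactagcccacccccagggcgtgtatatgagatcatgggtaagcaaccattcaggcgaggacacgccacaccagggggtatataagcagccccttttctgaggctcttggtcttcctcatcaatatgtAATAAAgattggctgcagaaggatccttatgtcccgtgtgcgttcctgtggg
RLTR46A_dup62: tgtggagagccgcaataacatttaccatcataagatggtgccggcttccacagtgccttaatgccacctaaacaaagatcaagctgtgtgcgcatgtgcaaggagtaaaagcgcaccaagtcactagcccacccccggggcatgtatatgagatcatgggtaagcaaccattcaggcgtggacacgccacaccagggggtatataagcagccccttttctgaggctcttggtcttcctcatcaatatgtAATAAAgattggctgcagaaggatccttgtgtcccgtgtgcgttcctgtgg

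No test of the members' total share of the transcripts passed its threshold. In NPCs they made up 5.80% ± 0.563 (SD, n = 6) of all TE counts in Trim28-KO and 5.95% ± 0.713 (n = 2) in control (exact permutation test, two-sided, p = 0.857; smallest possible 0.0357). In Emx1-Cre cortex the shares were 6.52% ± 0.408 and 7.0% ± 0.247 (n = 3 each; exact permutation p = 0.2, smallest possible 0.1). In the floxed mice the libraries labelled Trim28-KO had 4.83% ± 0.308 and those labelled control 4.58% ± 0.242 (n = 4 each; exact permutation p = 0.286, smallest possible 0.0286). Uniquely assigned reads over member copies were 0.583% ± 0.0336 of gene counts in NPC Trim28-KO and 0.517% ± 0.00177 in control (exact permutation p = 0.0714), and 0.509% ± 0.117 and 0.559% ± 0.00856 in cortex (p = 0.8, exact permutation). In NPCs every Trim28-KO library (0.521% to 0.611%) lay above both controls (0.515% and 0.518%) in this copy share, while the cortex groups overlapped, and with 3 libraries each the cortex test could not pass 0.05. The 4 Cas9-GFP Trim28-KO libraries had 1.96% to 2.08% against 1.68% in their control, and the Stop-Cas9-GFP ones 1.97% to 2.34% against 2.1%, without a test.

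A few single subfamilies did change. With edgeR's quasi-likelihood test, a subfamily was called at a Benjamini-Hochberg adjusted p below 0.05 and an absolute log2 fold change above 0.5. In NPCs 2 of 202 tested members were upregulated (0.99%), against 1% of all subfamilies. In Emx1-Cre cortex 5 of 190 were upregulated (2.63%), against 3.92% of all. Neither share exceeded that of all subfamilies, and no member was downregulated in either by edgeR or by DESeq2. The median log2 fold change over the members was 0.04 in NPCs and -0.01 in cortex, against -0.02 and -0.01 over all subfamilies tested. In NPCs 26 members had an unadjusted p below 0.05, 17 of them up, and in cortex 27, 15 of them up. Counts at an unadjusted p below 0.05, here and below, were made for members only. They cannot be set against all subfamilies or copies. Every Trim28-KO library lay above every control for 17 members in NPCs (8.42%, against 5.88% of all subfamilies) and below for 10 (4.95%, against 5.38% of all). In cortex 20 lay above (10.5%, against 9.07% of all) and 11 below (5.79%, against 7.85% of all).

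No subfamily passed in the adult nuclei with edgeR. Of 228 tested members in Cas9-GFP nuclei 0 were called (0% of all subfamilies up), with 22 at an unadjusted p below 0.05, 13 of them up, and DESeq2 called 1 up and 1 down. In Stop-Cas9-GFP nuclei 0 of 225 were called (0% of all), with 10 below 0.05, and in the floxed mice 0 of 220 (0% of all), with 4 below 0.05, while DESeq2 called none in these 2 experiments. The libraries labelled Trim28-KO of the floxed mice lay above all those labelled control for 2 members (0.909%, against 0.678% of all) and below for 1 (0.455%, against 1.13% of all). With 1 control, all Trim28-KO libraries lay above it for 70 members in Cas9-GFP nuclei (30.7%, against 26% of all) and below it for 48 (21.1%, against 23.8% of all), and in Stop-Cas9-GFP nuclei above for 51 (22.7%, against 18.4% of all) and below for 32 (14.2%, against 18% of all). The plot of log2 fold changes by experiment shows this spread around 0, with the highest points at 2.70 in NPCs and 3.17 in cortex. The lines with 1 control spread wider without a call by edgeR. Their values ran from -2.45 to 7.93 in Cas9-GFP nuclei and from -2.57 to 4.06 in Stop-Cas9-GFP nuclei.

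**Figure D1:**
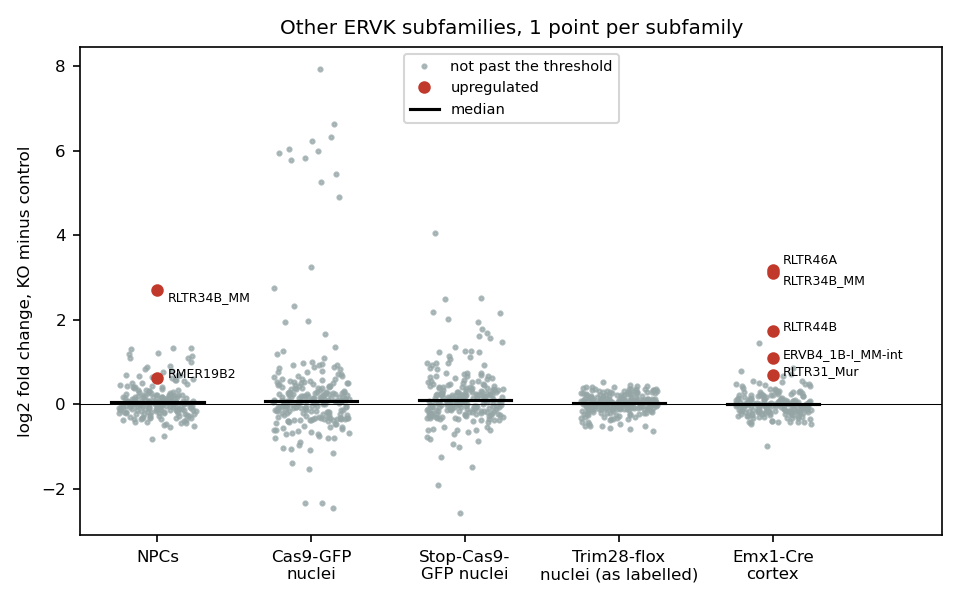
Log2 fold change (Trim28-KO minus control, by label) of every tested member subfamily in each of the 5 experiments, 1 point per subfamily, with the median as a line and upregulated subfamilies in colour. Most points lie near 0, and RLTR34B_MM stands far above the others in NPCs (2.70), as it does together with RLTR46A in Emx1-Cre cortex (3.09 and 3.17).

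RLTR34B_MM, an LTR subfamily, changed most in NPCs and rose in cortex as well. It had 421 to 603 CPM (of TE counts; median 495) in 6 NPC Trim28-KO libraries and 68.7 and 85.4 in both lacZ libraries (log2 fold change 2.70, SE 0.185, adjusted p = 3.01e-05). In cortex it had 380, 464 and 540 CPM against 50.7, 70.3 and 42.5 (3.09, SE 0.193, adjusted p = 5.9e-07). The groups were far apart in both tissues. Adult striatal nuclei gave 89 to 108 CPM against 65.3 in Cas9-GFP mice (0.60, adjusted p = 0.557), and 73.7 to 105 against 103 in Stop-Cas9-GFP mice (-0.16). In the floxed mice the log2 fold change by label was -0.03. The difference between the cortex and the floxed-mouse effects was 3.12 (adjusted p = 0.000478 over all subfamilies) by label and 3.07 (adjusted p = 0.000932) with the arms of the floxed mice exchanged.

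RMER19B2, the other LTR subfamily called in NPCs, changed less. Its level was 403 to 434 CPM in Trim28-KO against 282 and 273 in control (0.61, SE 0.101, adjusted p = 0.0162), so the groups did not overlap. In cortex it was 694, 760 and 631 CPM against 563, 550 and 592 (0.29, adjusted p = 0.182). Its NPC call was lost on leaving out either control library (adjusted p = 0.205 and 0.224) or either of 2 Trim28-KO libraries (0.0544 and 0.0561).

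The other 4 subfamilies called in cortex were not called in NPCs, where RLTR46A and RLTR44B had too few reads to be tested. RLTR46A, the LTR shown above, had 104, 179 and 159 CPM in Trim28-KO and 12.2, 5.02 and 29.0 in control (3.17, SE 0.399, adjusted p = 0.000223). RLTR44B had 66.1, 30.3 and 54.0 CPM against 15.7, 17.6 and 11.6 (1.73, SE 0.38, adjusted p = 0.0192), a call that was lost in 4 of 6 fits with 1 library left out (adjusted p up to 0.114). These values are only 28, 13 and 16 reads against 9, 7 and 6. Uniquely assigned RLTR44B reads were 21 against 16 in all, and 0 of its copies were tested. In CPM, Trim28-KO and control libraries did not overlap in RLTR46A or RLTR44B. ERVB4_1B-I_MM-int, an internal region, had 505, 429 and 371 CPM against 196, 251 and 176 (1.09, SE 0.156, adjusted p = 0.000715). Its log2 fold change in NPCs was 0.58 (adjusted p = 0.864), with overlapping groups. RLTR31_Mur had 328, 315 and 321 CPM against 210, 203 and 182 (0.69, SE 0.114, adjusted p = 0.0023), and in NPCs 217 to 388 against 137 and 240 (0.76, adjusted p = 0.364). RLTR31_Mur overlapped between the NPC groups and was apart in cortex. In the floxed mice RLTR46A had 37.0 to 62.7 CPM in the libraries labelled Trim28-KO and 57.6 to 76.8 in those labelled control (-0.47, adjusted p = 1), and the cortex effect exceeded this by 3.66 (adjusted p = 0.000196), or by 2.75 with the arms exchanged (adjusted p = 0.00301). Of the members, these 2 LTR subfamilies, RLTR34B_MM and RLTR46A, were the ones for which cortex and floxed mice differed (217 tested; 1.94% of all subfamilies). Between cortex and NPCs 0 of 201 member subfamilies differed with edgeR (0.379% of all subfamilies), with 9 at an unadjusted p below 0.05, and 0 of 1693 member copies (0.00388% of all copies), with 76 below 0.05. RLTR46A and RLTR44B were removed by the read filter and were not among the 201. RMER17D2_dup614, with 0 reads in every control of both tissues, had an SE of 1820 in this comparison. For such copies the test could not show a difference.

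**Figure D2:**
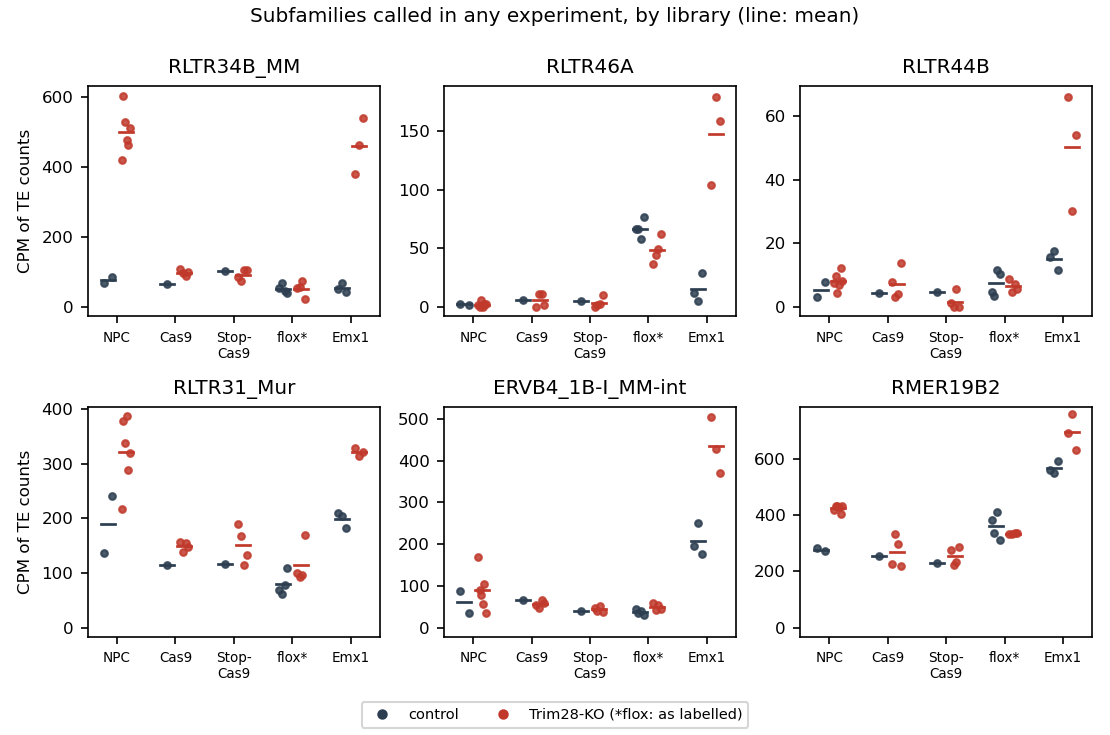
CPM of TE counts of the 6 subfamilies called in any experiment, 1 panel per subfamily, in every library (points: libraries, line: mean, colour: labelled group). Trim28-KO and control points of RLTR34B_MM are far apart in NPCs and cortex and lie at similar levels in the 3 experiments on adult nuclei.

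Just outside the threshold were MMTV-int (1.45, adjusted p = 0.0673) and RLTR13C1 (0.79, adjusted p = 0.0673) in cortex, and RLTR22_Mur (1.94, adjusted p = 0.0539) in Cas9-GFP nuclei. MRLTR33 in cortex was lower in every Trim28-KO library and passed the adjusted p but not the fold (-0.42, adjusted p = 0.0342). MMTV-int is the internal region of elements related to mouse mammary tumour virus.

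Among uniquely assigned reads, single copies carried much of the change of the leading subfamilies. RLTR34B_MM_dup64 took 58.4% of the uniquely assigned RLTR34B_MM reads in NPC Trim28-KO (880 of 1508) and 1.26% in control (3 of 239). The rest of the subfamily stayed at 6.35 ± 0.89 CPM of gene counts (SD, n = 6) against 6.08 ± 0.47 (n = 2). In cortex the copy took 46.5% (235 of 505) against 0.915% (4 of 437), and the rest was at 5.44 ± 0.83 and 6.38 ± 0.87 CPM (n = 3 each). The rise of this subfamily among uniquely assigned reads thus lay in 1 copy in both tissues. RLTR31_Mur_dup313 likewise took 31.1% of RLTR31_Mur reads in cortex Trim28-KO (129 of 415) against 0.473% (2 of 423), and RLTR46A_dup62 took 91.5% (226 of 247) against 62.5% (25 of 40). ERVB4_1B-I_MM-int went the other way. Its leading copy, ERVB4_1B-I_MM-int_dup325, held 41.4% of the reads in Trim28-KO and 57.3% in control, while the rest of the subfamily was at 5.14 ± 0.92 CPM against 2.22 ± 0.42. The 2 kinds of count did not match for RLTR34B_MM, whose subfamily counts were 2025 against 99 in NPCs and 520 against 79 in cortex. In the controls these were below the uniquely assigned reads of its copies. The reason was not tested.

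At the level of single copies, reads assigned uniquely by the authors were tested with the same rule. In NPCs 24 of 2216 tested member copies were upregulated (1.08%, against 0.55% of all TE copies tested) and 0 downregulated by edgeR or DESeq2. In cortex 25 of 1075 were upregulated (2.33%, against 2.48% of all) and 2 downregulated (0.186%, against 0.25% of all). With the replicate number of the NPC libraries as a block, 47 copies were upregulated (2.12%, against 1.13% of all) and 2 downregulated (0.0903%, against 0.037% of all). The members' upregulated share lay above that of all TE copies in NPCs and just below it in cortex. All Trim28-KO libraries lay above all controls for 171 tested member copies in NPCs (7.72%, against 5.63% of all) and below for 32 (1.44%, against 1.09% of all), and in cortex above for 86 (8.0%, against 7.11% of all) and below for 68 (6.33%, against 5.92% of all). Of the upregulated copies 17 were LTRs and 7 internal regions in NPCs, and 21 and 4 in cortex. In NPCs the subfamilies with most upregulated copies were RMER16-int (4 of 15 tested copies), RMER17D2 (3 of 13), MRLTR33 (2 of 15) and MYSERV6-int (2 of 43), and in cortex RLTR19-int (2 of 13), RMER17C2 (2 of 13) and RMER19B2 (2 of 14).

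RLTR34B_MM_dup64 (chr2:170673424-170673957, minus strand, outside genes) held 80 to 193 reads (median 157.5) in NPC Trim28-KO and 1 and 2 in control (log2 fold change 6.72, SE 0.476, adjusted p = 2.6e-05). In cortex it held 72, 96 and 67 reads against 1, 2 and 1 (6.20, SE 0.375, adjusted p = 1.46e-13). The copy was close to silent in every control and read in every Trim28-KO library of both tissues. RMER17D2_dup614 (chr7:34087995-34088739, plus strand, outside genes) held 54 to 345 reads (median 100.5) in NPC Trim28-KO and 0 and 0 in control, at least 52.3-fold higher at a floor of 3 reads per library (adjusted p = 0.00146). In cortex it held 59, 44 and 42 reads against 0, 0 and 0, at least 22.1-fold higher (adjusted p = 2.84e-11). Both copies gave no overlap between Trim28-KO and control.

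On chromosome 7 the copies RMER19B_dup2227 and RLTR11D_dup218 follow RMER17D2_dup614 within 1 locus, on the minus strand. RMER19B_dup2227 (chr7:34088741-34089426) held 23 to 257 reads (median 43.5) in NPC Trim28-KO against 0 and 2 (6.24, adjusted p = 0.0305), and RLTR11D_dup218 (chr7:34089646-34090150) 17 to 175 (median 33) against 1 and 2 (5.25, adjusted p = 0.0332). In cortex they held 22, 14 and 16 and 25, 19 and 17 reads, against 0 in all controls (at least 8.0-fold and 9.25-fold higher; adjusted p = 4.04e-07 and 6.03e-08). All 3 copies of this locus had their highest NPC value in the same g3 library.

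A second locus, on chromosome 9, held 3 named copies within a few kilobases. RMER17D2_dup795 (chr9:109501983-109502389) held 16 to 39 reads (median 30.5) in NPC Trim28-KO, RMER17D2_dup796 (chr9:109502572-109502956) 8 to 31 (median 23) and RMER16-int_dup1296 (chr9:109503834-109505040, minus strand) 8 to 28 (median 16.5). All 3 had 0 reads in both NPC controls, so they were at least 11.3-fold, 8.32-fold and 6.84-fold higher (adjusted p = 0.00124, 0.00182 and 0.00697). In cortex they held 26, 17 and 9, then 15, 11 and 8, then 16, 6 and 11 reads in the Trim28-KO libraries and 0 in every control, too few for the filter of the cortex test. With a filter of 10 summed reads instead, all 3 were called in cortex as well.

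The remaining named NPC copies had fewer reads. RMER16-int_dup1910 (chr13:22841260-22844074, plus strand) held 6 to 36 reads (median 19) against 0 and 0 (at least 7.28-fold higher, adjusted p = 0.00555), RLTR31_Mur_dup313 6 to 44 (median 15) against 0 and 0 (at least 6.83-fold, adjusted p = 0.0239), and RLTR12B_dup559 (chr11:6454622-6454941) 3 to 21 (median 14) against 0 and 0 (at least 5.27-fold, adjusted p = 0.0135). MYSERV6-int_dup2352 (chr13:22986195-22986431) held 3 to 24 (median 11.5) against 0 and 0 (at least 4.87-fold, adjusted p = 0.0206). Every Trim28-KO library was above both controls for each of these copies. The NPC calls rest on 2 controls: 4 copies were upregulated without one of them and 7 without the other. Of the 11 named NPC copies, RLTR34B_MM_dup64, RMER17D2_dup614, RMER17D2_dup795 and RMER17D2_dup796 kept their call either way and 7 lost it.

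**Figure D3:**
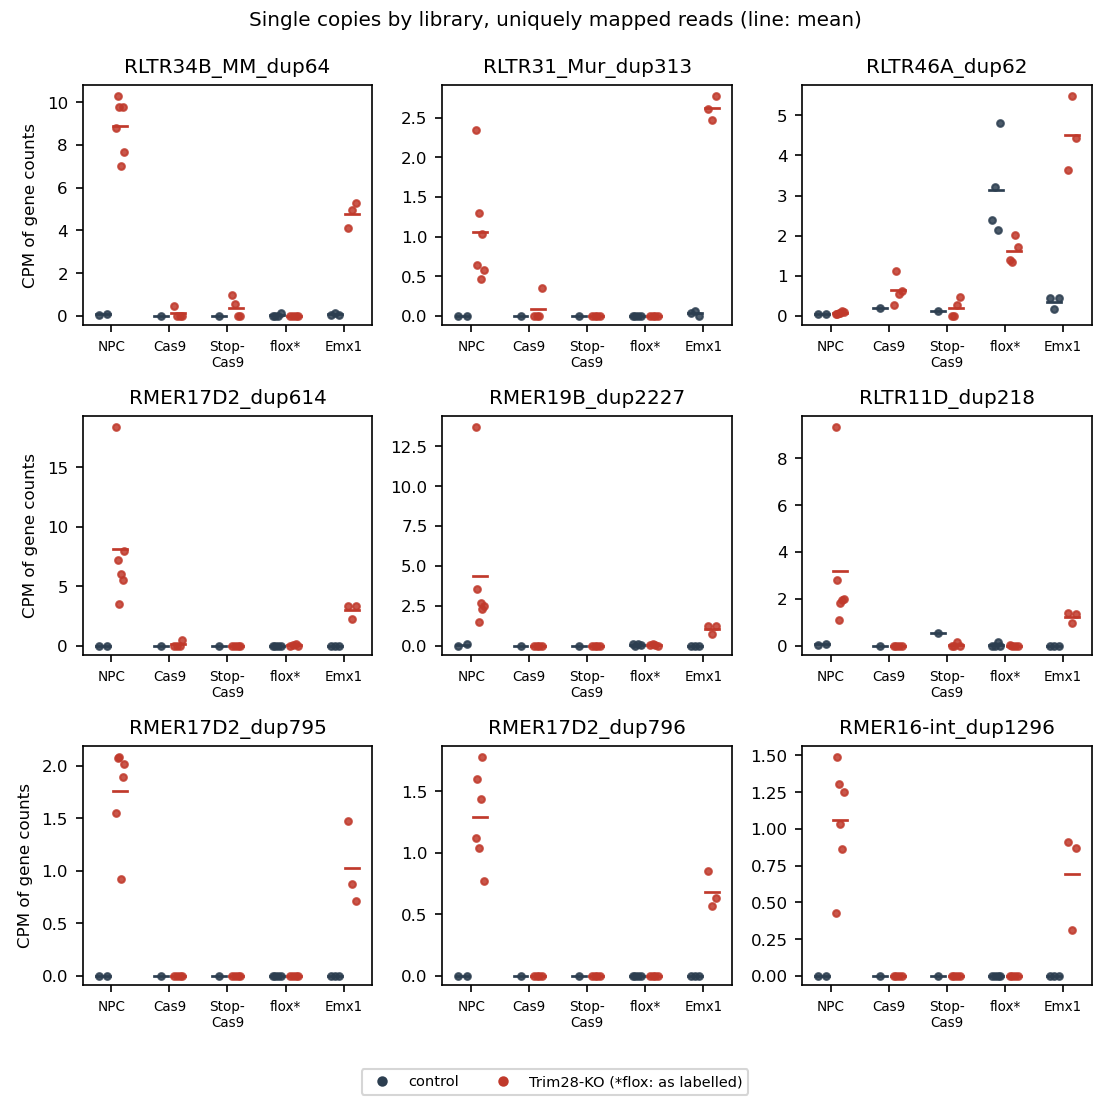
Uniquely mapped reads of 9 copies as CPM of gene counts, 1 panel per copy, in every library of the 5 experiments (points: libraries, line: mean, colour: labelled group). In NPCs and Emx1-Cre cortex the control points lie at or near 0 and the Trim28-KO points above them for every copy except RLTR46A_dup62, which is low in NPCs and is read in the floxed mice.

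Large changes in cortex were also seen in RLTR31_Mur_dup313 (46, 48 and 35 reads against 1, 1 and 0; log2 fold change 6.20, adjusted p = 3.76e-11), BGLII_dup953 (chr7:116732849-116733252; 35, 32 and 29 against 1, 1 and 0; 5.78, adjusted p = 1.24e-09) and RMER19B2_dup822 (chr6:147165324-147165711; 21, 65 and 13 against 0, 0 and 0; at least 13.8-fold higher, adjusted p = 6.03e-08). RLTR31M_dup104 (chr6:85867290-85867693) held 22, 21 and 14 reads against 0, 0 and 1 (5.78, adjusted p = 1.46e-07) and overlaps an exon of Nat8f2, a member of the N-acetyltransferase 8 family, on the opposite strand. All 4 copies were at 0 or 1 read in the control cortex libraries. RLTR46A_dup62 was different, with 64, 106 and 56 reads against 12, 3 and 10 (3.62, SE 0.293, adjusted p = 1.12e-10), so it was already read in the controls, and its upstream LTR RLTR46A_dup61 had 6 reads in all Trim28-KO libraries together and 3 in the controls.

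Reads of RLTR46A_dup62 also came from the floxed mice, where it held 127 reads in the libraries labelled Trim28-KO and 244 in those labelled control, and the cortex effect exceeded that of the floxed mice by 4.55 on the log2 scale (adjusted p = 0.000498; 0.0569% of all copies differed). With the arms of the floxed mice exchanged, as their Trim28 level would have it, the difference was 2.64 and did not pass (adjusted p = 0.448). The internal MMERVK10C copy 8 bp away had 619 against 101 reads in cortex and 559 against 962 in the floxed mice by label. NPCs had 7 against 2 reads of RLTR46A_dup62.

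MMTV-int_dup4, a near full-length internal region of 7245 bp in an intron of Coro2a (chr4:46576472-46583716, opposite strand), was chosen after its values were seen. It held 31, 16 and 10 reads in cortex Trim28-KO and 1, 3 and 3 in control (3.4, adjusted p = 2.41e-05). The groups did not overlap, and NPCs had 0 reads of it in any library.

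Downregulated copies in cortex were 2. RMER16-int_dup1633 held 53, 40 and 24 reads in Trim28-KO and 105, 78 and 108 in control (-0.86, adjusted p = 0.0131), and RLTR31C_MM_dup633 held 6, 16 and 7 against 41, 29 and 31 (-1.33, adjusted p = 0.0136). Neither overlapped between groups, but each call was lost in 2 of 6 fits with 1 library left out, and the second also with DESeq2 (adjusted p = 0.0819).

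Upregulated in both NPCs and cortex were 5 copies: RMER17D2_dup614, RMER19B_dup2227, RLTR11D_dup218, RLTR34B_MM_dup64 and RLTR31_Mur_dup313. They were 20.8% of the copies upregulated in NPCs and 20% of those in cortex. With the replicate block in NPCs 6 were shared (12.8% and 24%), the further one being RLTR13A3_dup208 (2.05 in NPCs, adjusted p = 0.0307 with the block and 0.139 without, and 3.10 in cortex, adjusted p = 9.85e-05). With 10 summed reads as the filter, 33 of 7473 copies were upregulated in NPCs (0.442%, against 0.198% of all) and 78 of 4302 in cortex (1.81%, against 1.43% of all), and 13 were in both (39.4% and 16.7%). These 13 also held the chromosome 9 copies, RLTR12B_dup559 and MRLTR33_dup54.

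The upregulated copies lay close to other upregulated TEs. In NPCs 22 of 24 (91.7%) had another upregulated TE copy within 10 kb, against 20 of 2192 (0.912%) of the copies tested and not called. In cortex the numbers were 16 of 25 (64%) and 12 of 1048 (1.15%). An upregulated copy of an ERVK group outside the members was near 9 of the 24 NPC copies (37.5%) and 6 of the 25 in cortex (24%). The 24 NPC copies lay at 18 loci and the 25 cortex copies at 21.

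In the chromosome 9 window (chr9:109491983-109515040) all TE copies together held 1775 reads in NPC Trim28-KO and 0 in control, and 563 and 0 in cortex. The member copies held 562 of the NPC reads and 160 of those in cortex. A single internal copy of the IAP group, IAP1-MM_I-int_dup253, 5653 bp from the members, held 159 reads against 0 in NPCs and 104 against 0 in cortex,. The window on chromosome 7 held 3926 against 16 reads in NPCs, 1661 against 5 of them in members, and 544 against 1 in cortex. There the internal IAP copy IAP1-MM_I-int_dup203, 5774 bp away, held 967 against 6 reads in NPCs and 98 against 1 in cortex. On chromosome 2 the window around RLTR34B_MM_dup64 held 1261 against 5 reads in NPCs and 312 against 4 in cortex, and ORR1A2_dup1858, an LTR of another family 2178 bp away, held 361 against 1 and 71 against 0 of them. Reads were spread over elements of several families on chromosomes 7 and 9 and were close to absent in controls. These counts give no place where transcripts start.

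**Figure D4:**
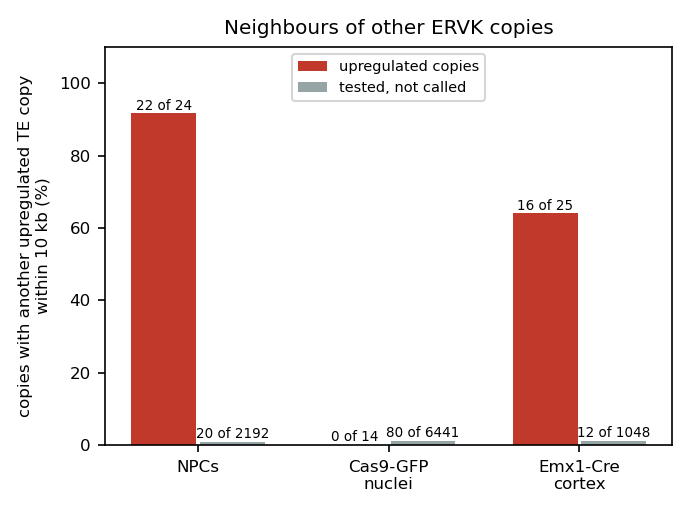
Percentage of member copies with another upregulated TE copy within 10 kb, in NPCs, Cas9-GFP nuclei and Emx1-Cre cortex, as bars for upregulated copies and for copies tested and not called, each with its count. The upregulated bars reach 91.7% in NPCs and 64% in cortex and stand at 0 in Cas9-GFP nuclei, while the other bars are between 0.912% and 1.24%.

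Upregulated copies lay mostly outside annotated genes, 66.7% of them in NPCs and 60% in cortex, against 20.7% and 29% of the copies tested. Of the upregulated LTRs 0 of 17 in NPCs and 1 of 21 in cortex touched an internal piece, against 4.37% and 4.7% of those tested and not called.

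Genes that rose lay next to many of these copies. An upregulated gene lay within 10 kb of 13 of the 24 NPC copies (54.2%), against 7 of 2192 (0.319%) of those tested and not called, and of 11 of the 25 in cortex (44%), against 12 of 1048 (1.15%). Genes and TEs were counted separately, so a read over both an exon and a copy can stand in both counts.

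Fbxw19, an F-box protein gene 6108 bp from RMER17D2_dup795, had no reads in any control of either tissue and was read in every Trim28-KO library. It held 94 to 285 reads in NPC Trim28-KO and 0 and 0 in control (adjusted p = 0.00361), and 131, 92 and 104 against 0, 0 and 0 in cortex (adjusted p = 1.34e-05). Vmn1r211, a vomeronasal receptor gene 3352 bp from RMER16-int_dup1910, held 24 to 90 reads against 0 and 0 in NPCs (adjusted p = 0.00704) and 2, 3 and 1 against 0 in cortex, and its neighbour Vmn1r210 30 to 56 against 0 and 0 in NPCs (adjusted p = 0.00361). These receptors are known from sensory neurons of the vomeronasal organ.

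Genes with a member copy inside them rose too. Tcfl5, a transcription factor gene best known from the testis, carries RLTR19-int_dup309 and RLTR53_Mm_dup64 in an intron on the opposite strand. It held 254 to 502 reads in NPC Trim28-KO against 40 and 17 (log2 fold change 4.07, adjusted p = 0.00361) and 233, 264 and 218 against 17, 7 and 27 in cortex (4.29, adjusted p = 2.75e-06). Zfp345, a zinc finger gene whose exon overlaps MRLTR33_dup54 on the opposite strand, held 73 to 255 reads against 5 and 15 in NPCs (4.14, adjusted p = 0.0115) and 28, 22 and 16 against 0 in cortex (adjusted p = 0.000476). In both genes each NPC and cortex Trim28-KO library was above every control. In adult nuclei Tcfl5 did not pass the test, with 17 to 83 reads against 0 in Cas9-GFP nuclei (adjusted p = 0.299) and, in the floxed mice, 39 to 149 in the libraries labelled Trim28-KO against 248 to 352 in those labelled control (-1.79, adjusted p = 0.182).

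In cortex Nat8f2 held 164, 178 and 110 reads against 11, 6 and 13 (4.36, adjusted p = 5.2e-07). The protocadherin gene Pcdha1, whose exon overlaps RLTR53B_Mm_dup148, held 148, 144 and 101 against 32, 8 and 7 (3.55, adjusted p = 5.41e-05). Beside RLTR46A_dup62, Abhd12b, 5938 bp away, rose from 7, 2 and 2 to 12, 17 and 16 reads (2.47, adjusted p = 0.0208), while Pygl, the liver glycogen phosphorylase gene 665 bp away, was at 46, 38 and 46 against 68, 56 and 62 (-0.03, adjusted p = 0.999). Not every gene at an upregulated copy was called.

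In adult striatal and forebrain nuclei the copies shared by NPCs and cortex were at or near 0. RLTR34B_MM_dup64 held 5, 0, 0 and 0 reads in Cas9-GFP Trim28-KO nuclei and 0 in control, and 0 to 9 in Stop-Cas9-GFP nuclei against 0. In the floxed mice it held 0 reads in the libraries labelled Trim28-KO and 2 in 1 library labelled control. RMER17D2_dup614 held 6 reads in 1 Cas9-GFP Trim28-KO library and 0 to 3 in the floxed mice, and RLTR11D_dup218 held 5 reads in the Stop-Cas9-GFP control. The copies of the chromosome 9 locus, RMER17D2_dup795, RMER17D2_dup796 and RMER16-int_dup1296, had 0 reads in all these nuclei. The window around them was not silent in Cas9-GFP Trim28-KO nuclei. All TE copies there held 25 reads, 9 of them in member copies, against 0 in control. Stop-Cas9-GFP and floxed-mouse nuclei held 0. Fbxw19 held 27, 14, 2 and 0 reads in Cas9-GFP Trim28-KO nuclei against 0 in control (6.38, adjusted p = 0.661 by edgeR).

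Cas9-GFP nuclei had 14 upregulated and 1 downregulated member copy of 6456 tested (0.217% up; 0.161% of all TE copies up and 0.00379% down). RMER6C_dup2452 on chromosome X held 25 to 97 reads in the 4 Trim28-KO libraries and 0 in the only control (at least 15.4-fold higher, adjusted p = 0.000335), and BGLII_B_dup242 in an intron of Phc2, a Polycomb gene, 31 to 58 against 0 (at least 12.7-fold, adjusted p = 0.0028). The most frequent subfamily was RMER6A, with 4 of 234 tested copies. In all, 12 of the 14 copies had 0 reads in that control, and 11 of these 12 had at least 10 reads in the lacZ control of the other line, where the median was 25.5. RMER6C_dup2452 held 27 reads there and BGLII_B_dup242 39. When both lines were fitted together 0 were called by edgeR. None of the 14 had an upregulated TE copy within 10 kb. MMERVK9E_I-int_dup1123 rested on 1 library, with 139 reads there and 0 or 2 in the others.

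The downregulated copy, RLTR31D_MM_dup5038 on chromosome Y, held 202 to 599 reads against 824 (-1.31, adjusted p = 0.00999). The control expressed Xist and was not counted as having Y-linked RNA, yet it held the most reads of this copy. Their assignment to chromosome Y is therefore uncertain. The Trim28-KO libraries were 2 of each sex by Xist and Y-linked RNA. The part of sex in this value was not tested.

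**Figure D5:**
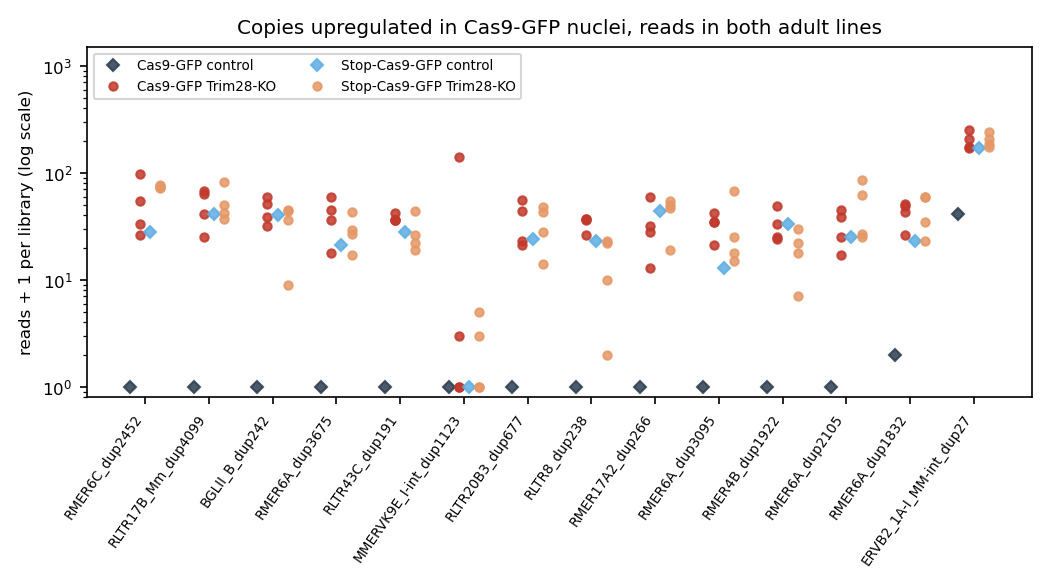
Reads plus 1 per library, on a log axis, of the 14 member copies upregulated in Cas9-GFP nuclei, in the Cas9-GFP and Stop-Cas9-GFP libraries (diamonds: lacZ controls, circles: Trim28-KO). The lacZ control of the Cas9-GFP line is at 0 reads for 12 of the 14 copies, and the lacZ control of the Stop-Cas9-GFP line is at 0 for MMERVK9E_I-int_dup1123 only.

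In Stop-Cas9-GFP nuclei 1 of 6833 tested member copies was upregulated (0.0146%, against 0.012% of all, and 0.00092% of all down), RLTR11A_dup1326 (chr9:99539952-99540509) in an intron of Armc8 on the opposite strand, with 44 to 59 reads against 0 in 1 control (at least 14.3-fold higher, adjusted p = 0.00594). The call was lost with DESeq2 (adjusted p = 1) and with both lines in 1 fit (0.511). In the floxed mice 0 of 2506 were called by edgeR or DESeq2 (0% of all up and 0.00644% down by edgeR), with 44 at an unadjusted p below 0.05. There 21 member copies lay above in all libraries labelled Trim28-KO (0.838%, against 0.93% of all) and 20 below (0.798%, against 0.758% of all). With 1 control, 1474 lay above in Cas9-GFP nuclei (22.8%, against 22% of all) and 1126 below (17.4%, against 18.6% of all), and 1042 above in Stop-Cas9-GFP nuclei (15.2%, against 13.1% of all) and 12% below (14.5% of all).

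The other genes of the repression pathway were not called. Of 30 genes fixed as a list (Setdb1, KRAB zinc finger partners, chromatin readers and DNA methyltransferases among them), 27 to 29 were tested per experiment, and Trim28 was the only one called, down in NPCs and cortex and up by label in the floxed mice. Their median log2 fold changes were between -0.05 and 0.11. Zfp809, a KRAB zinc finger gene known for silencing retroviruses, came closest in NPCs, with 28.2 to 36.6 CPM of gene counts in Trim28-KO against 15.1 and 16.5 in control (1.02, adjusted p = 0.0555), and was at 0.00 in cortex. Markers of other cell types were lower in part of the cortex comparison: meningeal markers summed to 8.06 to 14.5 CPM in Trim28-KO and 19.0 to 22.0 in control, with Col1a2 called down, oligodendrocyte markers to 2056 to 2207 against 2551 to 2754, and endothelial markers to 83.5 to 104 against 107 to 119. Neuronal markers summed to 6645 to 7950 against 7803 to 8170, and progenitor markers in NPCs to 1354 to 2985 against 1972 to 2877. Their part in the member results was not tested.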

How the data were processed

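The bulk RNA-seq libraries were polyA-selected, stranded and read as pairs. The authors deposited read counts, not normalised, in 3 kinds of table: TE subfamily counts from TEtranscripts, in which reads that map to several loci are shared out, and counts of uniquely mapped reads (STAR 2.6.0) over genes and over single TE copies from featureCounts of Subread 1.6.3, counted by strand, so reads in copies that are near-identical to others are lost. Copy coordinates are those of the mm10 RepeatMasker annotation in the files. Gene context came from GENCODE M21 and sequences from GRCm38.p6. Of the columns for single copies, 6 that belong to other samples were not used.

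Samples were grouped by their titles. Each experiment was fitted by itself with edgeR 4.0.16 (filterByExpr, TMM, quasi-likelihood test) over all subfamilies, copies or genes, with Benjamini-Hochberg adjustment over all tested. Subfamilies used their own library sizes, and copies those of the gene counts. With a single control, its spread was taken to equal that of the other group. Called features had an adjusted p below 0.05 and an absolute log2 fold change above 0.5. Shares of totals were compared with exact permutation tests (scipy 1.17.1). Fold changes against 0 reads use a floor of 3 reads per library as a lower bound, which covers counting error only. In simulated counts, copies changed 2, 4, 8 and 16 fold, up or down, were called in 4%, 40%, 60% and 78% for NPCs. The shares were 30%, 84%, 86% and 96% for cortex and 0%, 0%, 12% and 26% for Cas9-GFP nuclei. For the floxed mice they were 0%, 30%, 72% and 68%. Subfamilies changed 2 fold were called in 76%, 88%, 44% and 60%, in the same order. Stop-Cas9-GFP nuclei were not simulated. Many changed copies in adult nuclei could thus go uncalled. Members and gene lists were chosen with earlier results of these data known. Named subfamilies are all those called in any experiment, and named copies are up to 8 with the largest change per direction and experiment among called copies whose groups do not overlap, plus copies called in more than 1 experiment, and genes within 10 kb of named copies. RLTR46A_dup61, MMTV-int_dup4, MMERVK9E_I-int_dup1123 where 1 library decides it, and neighbouring genes and copies beyond this were picked after their values were seen.

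NPC libraries are numbered in 2 series, which entered as a block in an alternative fit and not in the main fit. NPC values given without mention of the block ignore the series. Deviations from the group means correlated between same-series libraries by 0.153 to 0.248 for subfamilies, 0.573 to 0.797 for genes and 0.492 to 0.629 for copies. The blocked fit called the same 2 subfamilies. Alternatives were DESeq2 1.42.0, other scalings and filters, the separate ERVK copy table, chromosomes X and Y left out, both adult Cas9 lines in 1 fit, and each library left out in turn. Leaving libraries out for Trim28, and exchanging the arms of the floxed mice, were chosen after seeing the data. Single-nucleus and CUT&RUN files were not used here. Of the copies upregulated in Cas9-GFP nuclei, 1 is not described here.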

Additional observations from a re-analysis of the deposited data

Results flagged for a closer look

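In 61 groups of 4 or 6 libraries tested with Dixon's criterion, 6 had a library apart from the rest, where chance gives about 1 in 20. RMER17D2_dup614, RMER19B_dup2227 and RLTR11D_dup218, the 3 neighbouring copies on chromosome 7, were all highest in the same NPC Trim28-KO library (guide g3), with 18.4, 13.7 and 9.34 CPM of gene counts against 3.52 to 7.97, 1.5 to 3.57 and 1.11 to 2.82 in the other 5. Without that library each of the 3 kept its call. RMER16-int_dup1910 reached 2.07 CPM in a g13 library of NPC Trim28-KO, with 0.576 to 1.12 in the others. The subfamily RLTR31_Mur was at 170 CPM of TE counts in a library labelled Trim28-KO in the floxed mice, where the others had 93.3 to 99.8. Member copies took 1.92% of gene counts in a library labelled control in the floxed mice, against 1.47% to 1.54% in the others.

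By edgeR's interaction test, the effect in Emx1-Cre cortex exceeded the effect by label in the floxed mice by 3.12 for RLTR34B_MM, 3.66 for RLTR46A and 4.55 for RLTR46A_dup62 on the log2 scale. Trim28 was higher in the floxed-mouse libraries labelled Trim28-KO, so the sign of that effect follows the labels only. With its arms exchanged the differences were 3.07, 2.75 and 2.64, and that of RLTR46A_dup62 no longer passed (adjusted p = 0.448).

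In 4 cases all Trim28-KO libraries lay above all controls in 1 experiment and below all in another, and these differences were not tested. ERVB4_1B-I_MM-int had log2 fold changes of 1.09 in cortex and -0.23 in Cas9-GFP nuclei. RLTR8_dup238 had 8.02 in Cas9-GFP nuclei and -1.02 in Stop-Cas9-GFP nuclei. RMER16-int_dup1633 had 3.78 in Cas9-GFP nuclei, -1.20 in Stop-Cas9-GFP nuclei and -0.86 in cortex. The Cas9-GFP values rest on 1 control library, in which RLTR8_dup238 had 0 reads.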

How the results depend on the processing

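No called direction turned under the alternatives run. Scaling subfamilies to the gene counts moved the median log2 fold change of all subfamilies from -0.02 to 0.29 in NPCs and from 0.04 to 0.36 in Cas9-GFP nuclei. Member subfamilies upregulated went from 2 to 4 (of 205 tested) and from 0 to 9 (of 227). All subfamilies upregulated went from 8 to 17 (of 811) and from 0 to 34 (of 967). With DESeq2, Cas9-GFP nuclei had 1 subfamily up, 1 down and 0 copies down, Stop-Cas9-GFP nuclei 0 copies up, and cortex 1 copy down. With both adult lines in 1 fit, 0 copies were up in either line and 0 down in Cas9-GFP nuclei. Without chromosomes X and Y 0 were down there. The separate ERVK table gave 38 of 2465 member copies up in NPCs, against 103 of all 2806 tested there. In Cas9-GFP nuclei it gave 25 of 7022 up, against 32 of 7964. In cortex 6 of 1165 were down, against 6 of 1398. The copies' own library sizes gave 1 down in NPCs. With no filter cortex had 8 of 238 member subfamilies up (34 of all 1096), and with 10 summed reads 78 copies up. The replicate block gave 47 copies up and 2 down in NPCs and changed no subfamily call. With 1 library left out, NPCs had 1 to 2 subfamilies up and 4 to 32 copies up (4 and 7 without either control), cortex 4 to 7 subfamilies and 27 to 37 copies up and 1 to 4 down. Cas9-GFP nuclei had 0 to 3 subfamilies up and 0 to 3 down, 7 to 61 copies up and 0 to 4 down, with the highest without the library of all 3 guides, and Stop-Cas9-GFP nuclei 1 to 2 copies up. Trim28 was between -2.00 and -1.62 in NPCs (adjusted p 0.0263 to 0.414). Depth limits the copies: 2216 of 275051 were tested in NPCs and 1075 in cortex.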
